A study of Caenorhabditis elegans with 12 samples.

Results

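The 10 genes described here encode the voltage-gated calcium channels and the NALCN sodium leak channel complex of Caenorhabditis elegans. They were taken by gene symbol as the rows for unc-2, egl-19, cca-1, unc-36, ccb-1, ccb-2, nca-1, nca-2, unc-79 and unc-80, so no measured value entered the choice. All 10 were found among the 46739 genes of the count table, with nca-1 listed as unc-77 in the annotation, and all 10 were among the 18342 genes that passed the filter on low counts.

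A voltage-gated calcium channel opens when the membrane depolarises and lets calcium into the cell, which triggers transmitter release in neurons and contraction in muscle. Its pore is formed by an α1 subunit, and in high-voltage-activated channels the pore is accompanied by an α2δ subunit, which aids delivery to the membrane and the synapse, and by an intracellular β subunit. The worm has an N/P/Q-type pore (UNC-2), an L-type pore (EGL-19) and a T-type pore (CCA-1). NALCN channels carry a background sodium current that sets how excitable a neuron is. In the worm the alternative pores NCA-1 and NCA-2 depend on the large proteins UNC-79 and UNC-80, which are also needed for the channel to reach the axon.

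RNA was taken from whole worms at day 10, from 100 worms of each strain grown at 20 °C, and sequenced in 12 libraries. The groups were spr-4;spr-3;daf-2 (the triple mutant), daf-2, spr-4;spr-3 (the spr double mutant) and N2, the wild type and background strain, with 3 biological replicates each. The product of daf-2 is the worm insulin/IGF-1 receptor. SPR-3 and SPR-4 are zinc finger proteins likened to REST, a vertebrate repressor of neuronal genes. No source used here names the alleles, so how much function each mutation leaves is not known from them.

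The libraries held 11892808 to 46493665 counts, and levels are given as CPM (counts scaled to library size by TMM), in order of replicate 1, 2 and 3. Transcripts of the mutated genes remained present, so their levels do not by themselves check the labels. The spr-3 gene had 37.9 to 42.5 CPM in the triple mutant and 26 to 30.5 CPM in the spr double mutant, against 21.2 to 24.4 CPM in N2. The spr-4 gene had 21.8 to 40.4 CPM in the triple mutant and 36.4 to 41.2 CPM in the spr double mutant, against 46.1 to 76.8 CPM in N2. The daf-2 gene had 56.4 to 70.8 CPM in the triple mutant and 62.7 to 72.6 CPM in daf-2, against 35.1 to 38.7 CPM in N2. In RNA of whole worms, fewer cells of a type and less RNA per cell cannot be told apart. All tests below are edgeR's quasi-likelihood test on all 12 libraries, with Benjamini-Hochberg adjustment over all tested genes and a threshold of 0.05. Each log2 fold change is given with its SE, and the first-named group is on top.

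The genes unc-79, cca-1 and unc-36 changed in at least 1 comparison, and each followed the genotypes in its own way. The NALCN subunit gene unc-79 was low in both strains that carry the daf-2 mutation. The T-type pore gene cca-1 was low in the triple mutant alone, below daf-2 and below the spr double mutant. The α2δ gene unc-36 was high in both strains that carry the spr mutations. The other 7 genes passed the threshold in none of the 6 comparisons. Of 60 results (10 genes in 5 pairwise comparisons and the interaction) 9 passed, and of the remaining 51 only 25 had a 95% interval that stayed inside a 2-fold change both ways.

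**Figure D1:**
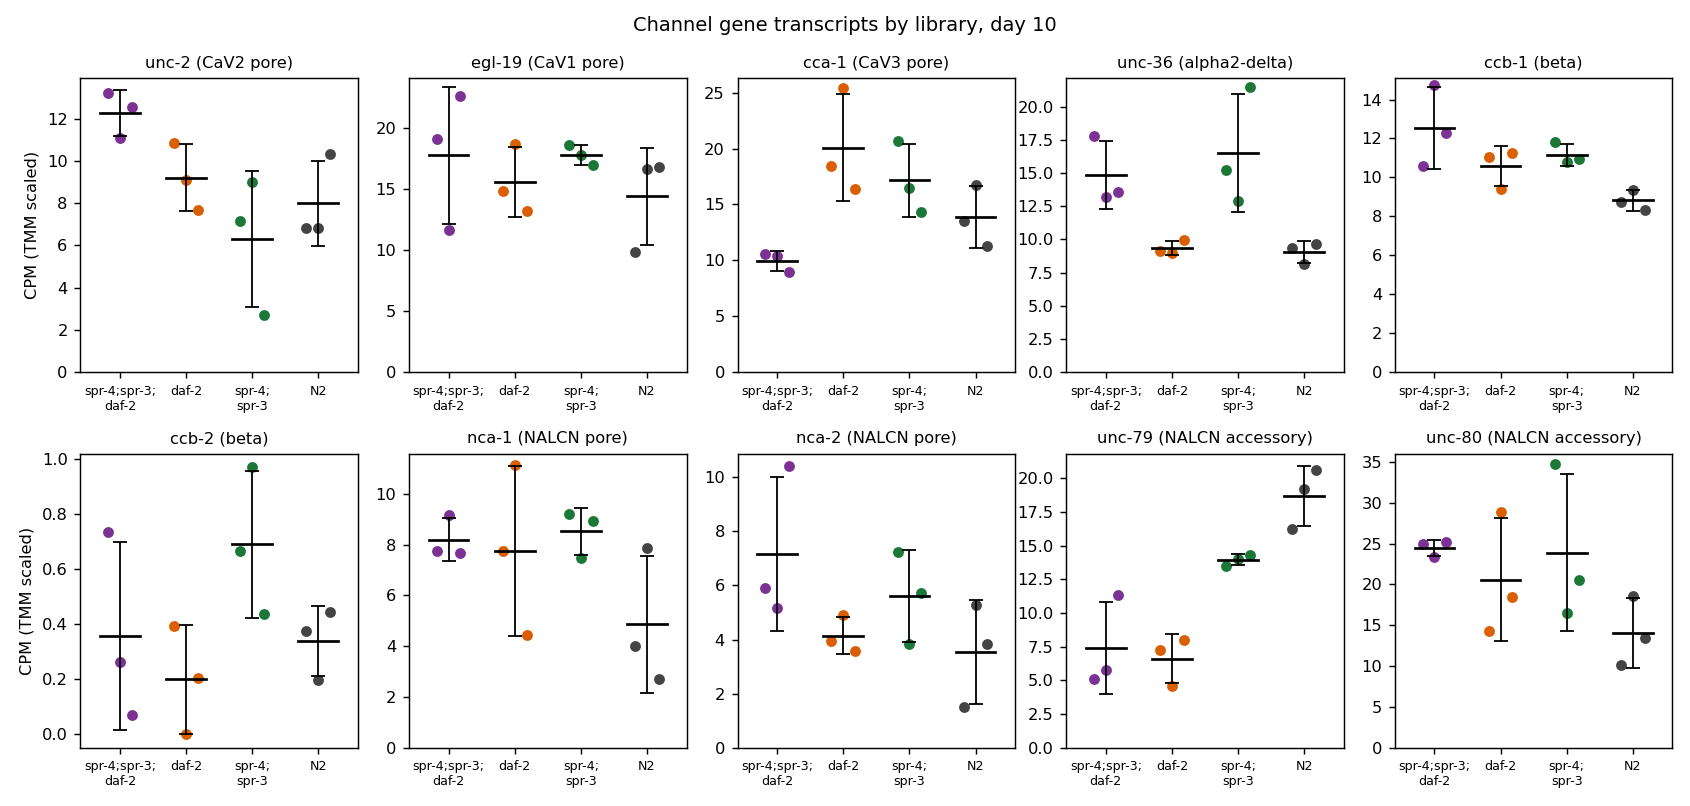
Level of each of the 10 genes in CPM, on a linear axis of its own, in the 12 libraries. Points are libraries, and lines show the mean ± SD of 3 replicates. The unc-79 libraries of spr-4;spr-3;daf-2 and daf-2 lie between 4.59 and 11.3 CPM, below all N2 libraries, and the cca-1 libraries of spr-4;spr-3;daf-2 lie between 8.95 and 10.6 CPM.

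The gene cca-1 lies on X at 7847678 to 7875954 on the minus strand (build WBcel235, Ensembl release 115), with 6419 exon bases. Its T-type pore opens at lower voltages than the other worm calcium channels. It had 10.6, 10.4 and 8.95 CPM in the triple mutant and 18.5, 25.5 and 16.4 CPM in daf-2. It had 20.7, 16.5 and 14.3 CPM in the spr double mutant and 13.5, 16.8 and 11.3 CPM in N2. The 3 triple-mutant libraries were the lowest of the 12, and the ranges of the other 3 genotypes overlapped.

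Against daf-2, cca-1 fell in the triple mutant by 1.00 ± 0.21 on the log2 scale, to 0.499 of the daf-2 level (95% interval 0.366 to 0.68, edgeR adjusted p = 0.0051). Against the spr double mutant it fell by 0.78 ± 0.21 (edgeR adjusted p = 0.0189). That second call was lost without replicate 3 of the triple mutant or replicate 1 of the spr double mutant (edgeR adjusted p up to 0.085 over the alternatives), and the first was kept under each of 19 alternatives. Against N2 the difference was -0.48 ± 0.21 (edgeR adjusted p = 0.119), with all 3 triple-mutant libraries below all 3 N2 libraries.

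Each set of mutations on its own gave a positive cca-1 difference from N2 that did not pass the threshold, 0.53 ± 0.21 for daf-2 (edgeR adjusted p = 0.0877; without replicate 2 of N2 it passed, at 0.69) and 0.31 ± 0.21 for the spr double mutant (edgeR adjusted p = 0.373). The interaction asks whether the difference of daf-2 from N2 is the same in worms that carry the spr mutations. For cca-1 it was -1.31 ± 0.30 (95% interval -1.94 to -0.68, edgeR adjusted p = 0.0132). It passed under each of 18 alternatives, with an adjusted p of at most 0.0457. Of the 10 genes cca-1 was the 1 called in the interaction, where 8.32% of all tested genes were called.

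The gene unc-2 (X, 2710920 to 2763526, minus strand, 7784 exon bases) encodes the presynaptic pore that couples action potentials to transmitter release. It had 13.2, 11.1 and 12.5 CPM in the triple mutant and 10.8, 9.10 and 7.67 CPM in daf-2. It had 7.13, 8.98 and 2.72 CPM in the spr double mutant and 6.83, 6.82 and 10.3 CPM in N2. All triple-mutant libraries lay above those of each other genotype, and replicate 3 of the spr double mutant, with 100 counts, was the lowest library.

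For unc-2 no difference passed the threshold. The nearest was the triple mutant against the spr double mutant at 0.97 ± 0.32 (edgeR adjusted p = 0.0541), which passed with DESeq2, with no filter on low counts, and without replicate 2 of the spr double mutant. The difference of the triple mutant was 0.42 ± 0.32 against daf-2 (edgeR adjusted p = 0.445) and 0.62 ± 0.32 against N2 (edgeR adjusted p = 0.188).

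The gene egl-19 (IV, 7405582 to 7418740, plus strand, 6465 exon bases) encodes the L-type pore that drives muscle contraction in body wall and pharynx. It had 19.1, 11.6 and 22.5 CPM in the triple mutant and 14.8, 18.7 and 13.2 CPM in daf-2. It had 18.6, 17.8 and 17.0 CPM in the spr double mutant and 9.79, 16.6 and 16.8 CPM in N2. The double mutant was tight and above N2 in every library, while the other 3 genotypes spread more widely.

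All 5 pairwise egl-19 differences lay between -0.003 (triple against double mutant) and 0.30 (double mutant against N2), with SEs of about 0.24 and adjusted p of 0.419 to 0.996 in edgeR. The interval of triple against double mutant ran from -0.51 to 0.51, which holds no large change in either direction.

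Among the auxiliary subunits, unc-36 (III, 8193843 to 8201217, minus strand, 4059 exon bases) encodes an α2δ protein that works with UNC-2 and EGL-19. It had 17.8, 13.2 and 13.6 CPM in the triple mutant and 9.14, 8.94 and 9.96 CPM in daf-2. It had 15.2, 12.9 and 21.5 CPM in the spr double mutant and 9.34, 8.13 and 9.66 CPM in N2. The 6 libraries with the spr mutations all lay above the 6 without them, and daf-2 and N2 had nearly the same range.

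In the spr double mutant unc-36 rose by 0.87 ± 0.21 over N2, a 1.83-fold difference (95% interval 1.35 to 2.47, edgeR adjusted p = 0.0137). The triple mutant showed a rise of 0.66 ± 0.21 over daf-2, 1.59-fold (95% interval 1.17 to 2.15, edgeR adjusted p = 0.0428), and by 0.72 ± 0.21 over N2 (edgeR adjusted p = 0.0196). In daf-2 against N2 the difference was 0.05 ± 0.21, with an interval of -0.39 to 0.49 (edgeR adjusted p = 0.898). The interaction was -0.21 ± 0.29 (edgeR adjusted p = 0.732), so a difference between the 2 spr comparisons was not found at this error.

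These unc-36 calls are near the threshold. The double mutant against N2 was lost without replicate 3 of the spr double mutant, where the difference was 0.62. The triple mutant against daf-2 was lost without any 1 of the 6 libraries compared and without replicate 1 or replicate 3 of N2, with differences of 0.52 to 0.74. It was also lost when the number at the end of the column headers was a term in the fit (difference 0.67, edgeR adjusted p = 0.0622). The triple mutant against N2 was lost without replicate 1 of the triple mutant or replicate 2 of N2. Its direction was positive in these 3 comparisons under every alternative.

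The gene ccb-1 (I, 3641651 to 3647082, minus strand, 2089 exon bases) encodes the main β subunit of the high-voltage-activated channels. It had 10.6, 14.8 and 12.3 CPM in the triple mutant, 11.1, 9.42 and 11.3 CPM in daf-2, and 11.8, 10.8 and 10.9 CPM in the spr double mutant. It had 8.74, 9.38 and 8.33 CPM in N2. All libraries of the 3 mutant strains lay above all N2 libraries, by small margins.

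Its differences from N2 were 0.51 ± 0.18 in the triple mutant (edgeR adjusted p = 0.0544), 0.34 ± 0.18 in the spr double mutant (edgeR adjusted p = 0.246) and 0.27 ± 0.18 in daf-2 (edgeR adjusted p = 0.338). None passed the threshold, and the first passed with DESeq2, without replicate 1 of the triple mutant, and with a long-transcript score in the fit.

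The gene ccb-2 (I, 2845859 to 2849903, plus strand, 1528 exon bases) encodes a second β subunit and was near the limit of detection. It had 20, 10 and 3 counts in the triple mutant, 11, 0 and 10 in daf-2, 19, 32 and 16 in the spr double mutant, and 10, 6 and 13 in N2. The SEs of its pairwise log2 differences were between 0.98 and 1.02, so changes of several fold could not be detected for it at this depth. A floor of 3 counts equals 0.0645 to 0.252 CPM of the raw library totals.

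Of the NALCN pores, nca-1 (IV, 6157306 to 6183857, minus strand, 5905 exon bases) had 7.74, 9.17 and 7.66 CPM in the triple mutant and 7.75, 11.1 and 4.42 CPM in daf-2. It had 9.19, 7.47 and 8.92 CPM in the spr double mutant and 4.02, 7.87 and 2.69 CPM in N2. Replicate 2 of N2 lay among the mutant libraries, and the other 2 N2 libraries were the lowest of the 12.

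The nca-1 differences from N2 were 0.75 ± 0.35 in the triple mutant (edgeR adjusted p = 0.143), 0.65 ± 0.36 in daf-2 (edgeR adjusted p = 0.224) and 0.81 ± 0.35 in the spr double mutant (edgeR adjusted p = 0.151). Without replicate 2 of N2 all 3 passed, at 1.29, 1.18 and 1.35 on the log2 scale. With all libraries kept, the comparisons of the triple and the spr double mutant also passed with no filter on low counts, and that of daf-2 did not.

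The gene nca-2 (III, 4965571 to 4979738, plus strand, 5611 exon bases) had 5.91, 5.15 and 10.4 CPM in the triple mutant and 3.96, 4.91 and 3.56 CPM in daf-2. It had 7.23, 3.84 and 5.71 CPM in the spr double mutant and 1.50, 5.28 and 3.84 CPM in N2. The triple mutant lay above daf-2 in every library and overlapped N2. The difference was 0.80 ± 0.40 against daf-2 (edgeR adjusted p = 0.203) and 1.01 ± 0.39 against N2 (edgeR adjusted p = 0.0773), the second of which passed with no filter on low counts, with the header number as a term, and without replicate 2 of N2, at 1.42.

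Per exon base nca-1 stood at 1.21 ± 0.50 times nca-2 in the triple mutant, 1.73 ± 0.50 in daf-2, 1.51 ± 0.32 in the spr double mutant and 1.54 ± 0.94 in N2 (SD, n = 3 each). The libraries of all 4 genotypes overlapped in this ratio.

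The gene unc-79 (III, 4066633 to 4082849, plus strand, 6538 exon bases) had the largest change among the 10 genes. It had 5.10, 5.75 and 11.3 CPM in the triple mutant and 7.28, 4.59 and 7.98 CPM in daf-2. It had 13.5, 14.0 and 14.3 CPM in the spr double mutant and 16.3, 19.2 and 20.6 CPM in N2. The genotypes fell into steps with no overlap between the spr double mutant and N2, or between either of these and the daf-2 mutant strains.

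In daf-2 unc-79 fell by 1.48 ± 0.27 relative to N2, to 0.36 of the N2 level (95% interval 0.241 to 0.538, edgeR adjusted p = 0.00104). In the triple mutant it fell by 1.33 ± 0.27 relative to N2 (edgeR adjusted p = 0.002) and by 0.91 ± 0.27 relative to the spr double mutant (edgeR adjusted p = 0.0314). Both calls against N2 were kept under each of 19 alternatives. The call against the spr double mutant was lost in a fit of those 6 libraries alone, and without replicate 1 or 2 of the triple mutant or any 1 library of the spr double mutant.

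No unc-79 difference made by adding the spr mutations passed the threshold in either background. The difference was 0.14 ± 0.27 in the triple mutant against daf-2 (edgeR adjusted p = 0.797) and -0.42 ± 0.26 in the spr double mutant against N2 (edgeR adjusted p = 0.33), although all 3 double-mutant libraries lay below all 3 of N2. The interaction was 0.56 ± 0.38 (edgeR adjusted p = 0.406).

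The gene unc-80 (V, 20879601 to 20898948, plus strand, 10255 exon bases) encodes the partner of UNC-79. It had 24.9, 23.3 and 25.2 CPM in the triple mutant and 14.3, 28.9 and 18.5 CPM in daf-2. It had 34.7, 16.5 and 20.5 CPM in the spr double mutant and 10.2, 18.6 and 13.4 CPM in N2. The triple mutant was tight and wholly above N2, and the daf-2 and double-mutant libraries were widely spread.

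No unc-80 difference passed the threshold. Against N2 it was 0.80 ± 0.29 in the triple mutant (edgeR adjusted p = 0.0564), 0.53 ± 0.29 in daf-2 (edgeR adjusted p = 0.217) and 0.76 ± 0.29 in the spr double mutant (edgeR adjusted p = 0.097). The first passed under 8 of 19 alternatives, DESeq2 and a fit of those 6 libraries alone among them, and the last passed with no filter on low counts and without replicate 2 of the spr double mutant, at 0.94. Its exons share 109 bases with those of amx-3 on the opposite strand, and the library kit does not mark strand, so reads there cannot be told apart.

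**Figure D2:**
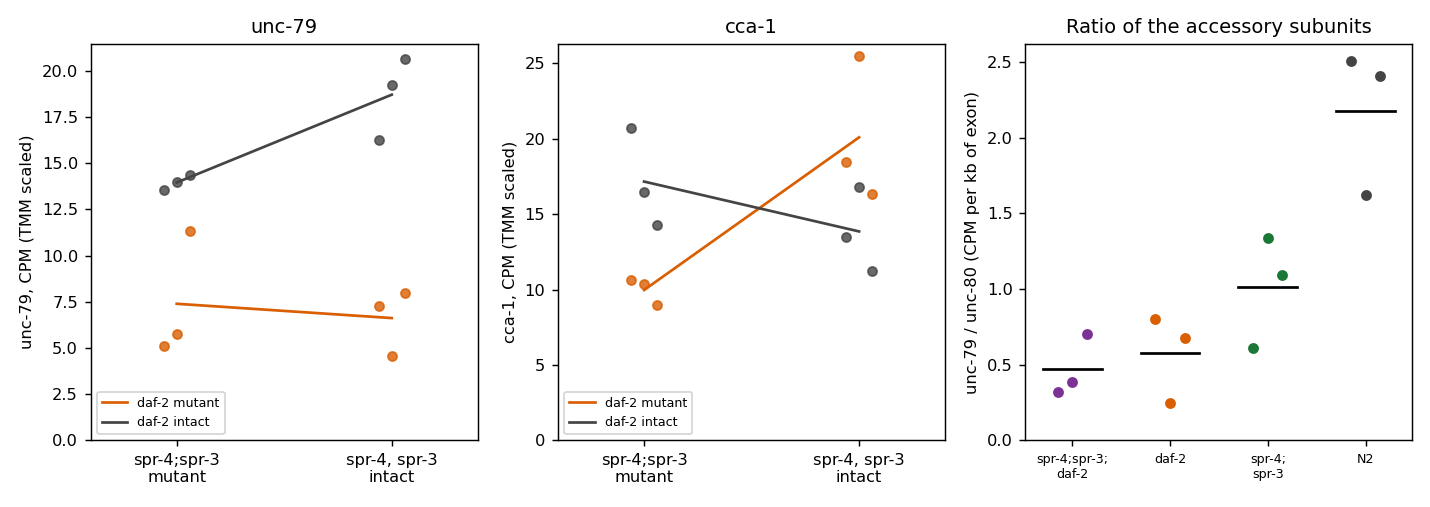
Levels of unc-79 and cca-1 in CPM with the spr genes mutant or intact, in worms with daf-2 mutant (orange) or intact (grey), and the ratio of unc-79 to unc-80 per kb of exon by genotype. Points are libraries, lines join the means of 3 replicates, and bars are mean ratios. The unc-79 lines stay apart with daf-2 mutant below, the cca-1 lines cross, and the 3 N2 ratios lie above all others.

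The partners unc-79 and unc-80 did not keep a fixed ratio. Per exon base unc-79 was 0.321, 0.387 and 0.705 times unc-80 in the triple mutant and 0.802, 0.249 and 0.677 times in daf-2. It was 0.611, 1.34 and 1.10 times unc-80 in the spr double mutant and 2.51, 1.62 and 2.41 times in N2. All 9 mutant libraries lay below the 3 N2 libraries, a description of 2 levels already given and not a further test.

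The ratio of the α2δ gene to the presynaptic pore gene per exon base (unc-36 over unc-2) was 2.32 ± 0.26 in the triple mutant, 2.00 ± 0.45 in daf-2 and 2.24 ± 0.42 in N2 (SD, n = 3 each). In the spr double mutant it was 4.09, 2.75 and 15.2, and the last value came from the replicate in which unc-2 had 100 counts.

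The order of levels could be compared between genes only per exon length. On the scale of CPM per kb of exon, ccb-1 had the highest mean in all 4 genotypes, at 6.01 ± 1.00 in the triple mutant, 5.07 ± 0.48 in daf-2, 5.35 ± 0.27 in the spr double mutant and 4.22 ± 0.25 in N2 (SD, n = 3 each). The lowest was ccb-2, at 0.233 ± 0.223 in the triple mutant, 0.130 ± 0.129 in daf-2, 0.451 ± 0.175 in the spr double mutant and 0.221 ± 0.083 in N2. The double mutant was the only genotype whose ccb-1 libraries overlapped those of the gene next in order, unc-36.

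In N2, unc-79 was second at 2.86 ± 0.34 CPM per kb and stood apart from unc-36 below it, while unc-36, egl-19 and cca-1 lay between 2.23 and 2.16 with overlapping libraries. In the triple mutant unc-79 was ninth at 1.13 ± 0.52, and unc-36 was second at 3.66 ± 0.63. In daf-2 cca-1 was second at 3.13 ± 0.74 and unc-79 eighth at 1.01 ± 0.27. In the spr double mutant unc-36 was second at 4.07 ± 1.10, and unc-79, at 2.13 ± 0.06, stood apart from nca-1 below it. Most other neighbours in these orders overlapped in their libraries, so their order is not firm.

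**Figure D3:**
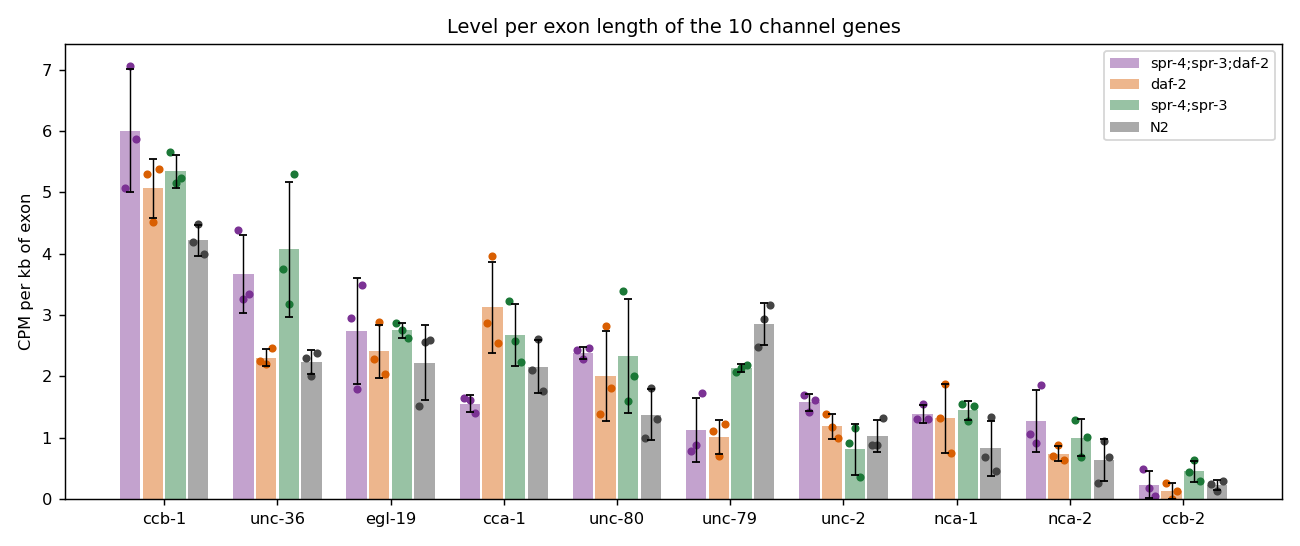
CPM per kb of exon for the 10 genes, with bars for means, points for the 3 libraries and error bars of ± SD, by genotype. The tallest bars are those of ccb-1, between 4.22 and 6.01, and the lowest are those of ccb-2. The N2 bar is the tallest of the 4 only for unc-79.

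Read against all tested genes, the number of calls among the 10 was not high. Of the 10, unc-79 was called in daf-2 against N2 (1 lower), against 20.6% of all tested genes. Both unc-36 (higher) and cca-1 (lower) were called between the triple mutant and daf-2, 2 of 10 against 13.4%. Only unc-36 (higher) was called between the spr double mutant and N2, 1 of 10 against 11.7%. Both cca-1 and unc-79 (lower) were called between the triple and the spr double mutant, 2 of 10 against 14.9%. Both unc-36 (higher) and unc-79 (lower) were called between the triple mutant and N2, 2 of 10 against 22.2%. These shares are near the background or, for daf-2 against N2, below it.

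The libraries of the groups compared did not overlap for 2 of 10 genes in daf-2 against N2, where this held for 39.9% of all tested genes. They did not overlap for 4 of 10 between the triple mutant and daf-2 (36% of all tested genes) and for 4 of 10 between the spr double mutant and N2 (28.5%). The count was 3 of 10 between the triple and the spr double mutant (30.7%) and 6 of 10 between the triple mutant and N2 (38.9%).

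The sign of the differences leaned one way in some comparisons, and this lean was only counted and not tested. Between the triple mutant and N2, 8 of 10 log2 differences were positive, with a median of 0.56 against 0.04 over all tested genes. There 7 of 10 had an unadjusted p under 0.05, 5 of them higher and 2 lower (cca-1 and unc-79), against 34.2% of all tested genes. In no other pairwise comparison was this count so high. It was 2 of 10 for daf-2 against N2 (32.6% of all tested genes) and 2 of 10 for the triple mutant against daf-2 (27.5%). It was 3 of 10 for the spr double mutant against N2 (26.9%) and 3 of 10 between the triple and the spr double mutant (28.4%). For the spr double mutant and N2, 8 of 10 were positive, with a median of 0.50 against 0.04. For daf-2 and N2, 8 of 10 were positive, with a median of 0.21 against 0.06. Between the triple mutant and daf-2, 9 of 10 were positive, with a median of 0.25 against -0.01. Between the triple and the spr double mutant, 4 of 10 were positive, with a median of -0.03 against 0.01. The comparisons against N2 share the N2 libraries, so they are not separate evidence. The 383 tested protein-coding genes of at least 5000 exon bases, a class that holds 7 of the 10, had medians above those of all genes in all 5 pairwise comparisons. These were 0.19 for the triple mutant, 0.17 for daf-2 and 0.11 for the spr double mutant, each against N2. They were 0.02 between the triple mutant and daf-2 and 0.06 between the triple and the spr double mutant. The part of transcript length in the lean was not tested.

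**Figure D4:**
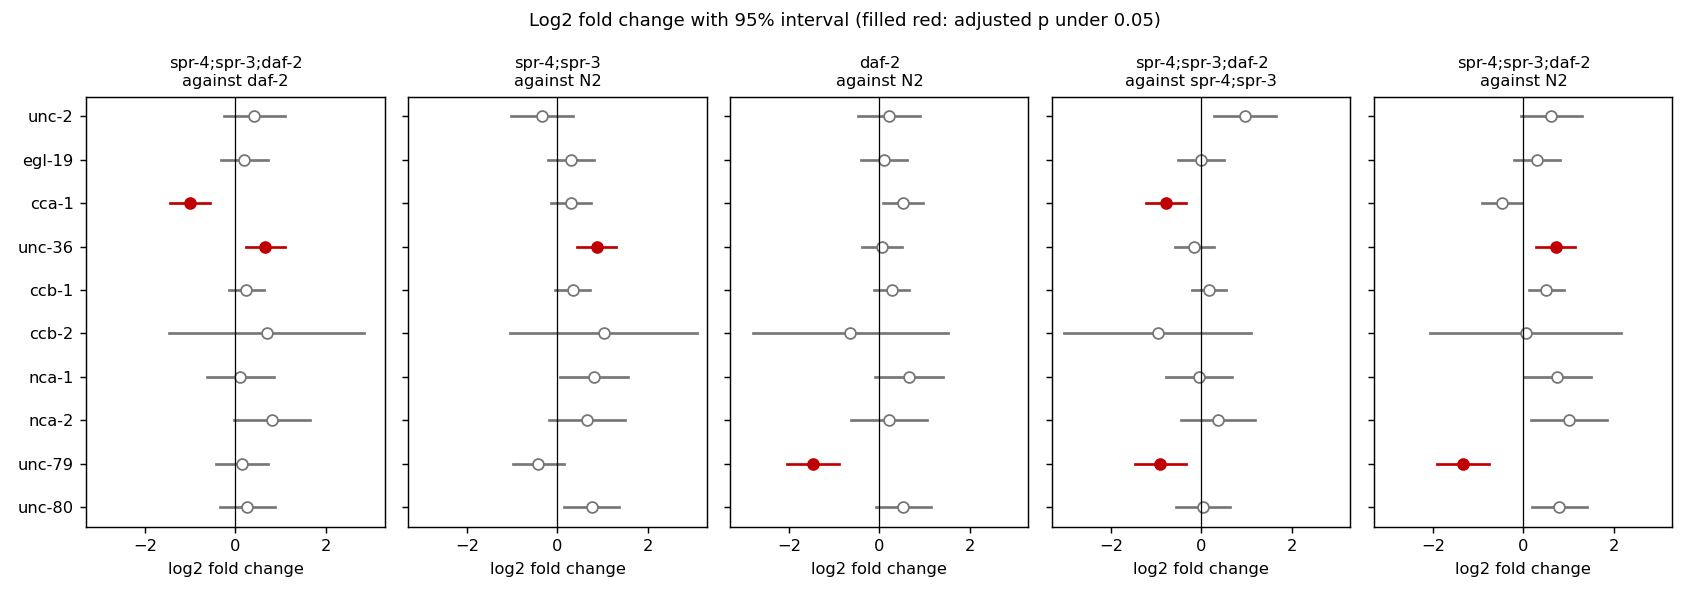
Log2 fold changes (points) of the 10 genes in the 5 pairwise comparisons, with 95% intervals (lines) from edgeR. The 8 results past an adjusted p of 0.05 are filled in red, and belong to cca-1, unc-36 and unc-79. The intervals of ccb-2 are the widest.

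Long transcripts as a class differed between libraries of 1 genotype, and 7 of the 10 genes have over 5000 exon bases. A score for each library was taken as the median deviation of 376 other tested protein-coding genes of at least 5000 exon bases from their mean, less that of all tested genes, on the log2 scale. It was 0.21, -0.24 and 0.16 in the triple mutant and -0.04, 0.26 and -0.13 in daf-2. It was 0.07, 0.03 and -0.11 in the spr double mutant and -0.38, 0.16 and -0.07 in N2. Replicate 1 of N2 had the lowest score and replicate 2 of daf-2 the highest.

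For egl-19 the library with the lowest score was also the one with the lowest level in 4 of 4 genotypes, and for unc-2 and nca-2 in 3 of 4. This held in 2 of 4 for cca-1 and unc-80, in 1 of 4 for unc-36, ccb-2, nca-1 and unc-79, and in 0 of 4 for ccb-1. For cca-1 the library with the highest score had the highest level in 4 of 4, for unc-79 in 0 of 4, and for the rest in 1 to 3 of 4. With the score as a term in the fit, the egl-19 difference in daf-2 against N2 was -0.06 with an SE of 0.17, in place of 0.10 with an SE of 0.24. The called results stayed called. There unc-79 in daf-2 against N2 was -1.48 (edgeR adjusted p = 0.00167), cca-1 in the triple mutant against daf-2 was -0.99 (edgeR adjusted p = 0.00378), its interaction was -1.24 (edgeR adjusted p = 0.0134) and unc-36 in the triple mutant against daf-2 was 0.67 (edgeR adjusted p = 0.0418). What makes the score differ between libraries was not tested.

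**Figure D5:**
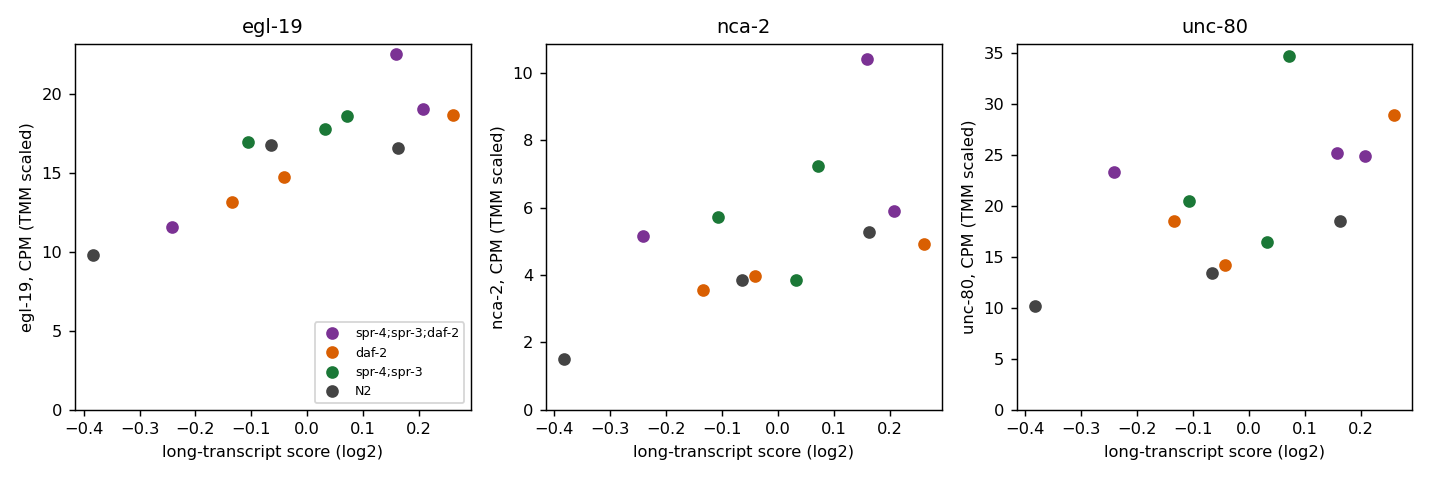
Levels of egl-19, nca-2 and unc-80 in CPM in each library (points) against the long-transcript score of that library (log2 scale), coloured by genotype. The egl-19 library with the lowest score is the lowest of its genotype in all 4 genotypes.

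Tissue markers moved with some of these comparisons. The summed level of 19 neuronal markers was 1040 to 1073 CPM in the triple mutant, 1049 to 1102 CPM in daf-2, 1088 to 1301 in the spr double mutant and 1188 to 1287 in N2, with no marker at 0 in any genotype. All 6 libraries with the daf-2 mutation lay below all 3 N2 libraries in this sum, as they did for unc-79. The abundant tubulin gene tbb-1 of this list averaged 226 ± 21.8 CPM in the triple mutant and 316 ± 7.2 CPM in N2 (SD, n = 3 each). In the triple mutant tbb-1 made up much of the fall of the sum. These data do not show in which cells it is expressed. In daf-2 against N2, 1 of 19 neuronal markers was higher and 3 were lower, with a median log2 difference of -0.11, against -1.48 for unc-79. The higher 1 was snt-1, by 1.13 ± 0.22 (edgeR adjusted p = 0.00165), and among the lower unc-33 fell by 0.75 ± 0.18 (edgeR adjusted p = 0.00589). In the triple mutant against N2, 2 of 19 were higher and 2 lower, with a median of -0.27. There snt-1 rose by 0.71 ± 0.22 (edgeR adjusted p = 0.0299) and unc-31 by 1.27 ± 0.31 (edgeR adjusted p = 0.00753). The tbb-1 level fell by 0.48 ± 0.13 (edgeR adjusted p = 0.0151). Both neuronal counts were near the shares of all tested genes. The part of the neuronal share in the unc-79 result was not tested.

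The summed level of 15 body wall muscle markers was 5146 to 5610 CPM in the triple mutant, 4493 to 4828 in daf-2, 2518 to 3796 in the spr double mutant and 4641 to 5213 in N2. The double mutant lay lowest, and 5 of its 15 markers were lower and 2 higher than in N2, against 11.7% of all tested genes called. The part of muscle content in the unc-36 result was not tested. The 7 pharyngeal muscle markers summed to 170 to 278 CPM in the triple mutant, 182 to 253 in daf-2, 240 to 282 in the spr double mutant and 217 to 354 in N2. In daf-2 against N2, 3 of these 7 were lower and none was higher, against 20.6% of all tested genes called.

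Other tissues that make up much of the worm also differed. The 11 intestinal markers summed to 325 to 520 CPM in the triple mutant, 406 to 520 in daf-2, 933 to 1705 in the spr double mutant and 1859 to 2563 in N2, and 8 of 11 fell in daf-2 against N2. The 14 germline and oocyte markers summed to 3654 to 4211 CPM in the triple mutant, 2382 to 2650 in daf-2, 4347 to 4650 in the spr double mutant and 4286 to 5147 in N2. There 9 of 14 fell and 1 rose in daf-2 against N2, and 7 of 14 rose in the triple mutant against daf-2. Of 8 tested sperm markers 1 rose, and of 6 tested epidermal markers none passed the threshold, in daf-2 against N2. Of all tested genes, 20.6% were called in daf-2 against N2 and 13.4% between the triple mutant and daf-2. A CPM is a share of all counts, so these tissues enter every level above, and their part in the channel results was not tested.

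Genes that work beside the channels were read from lists. Their counts are to be read against the same shares of all tested genes, 11.7% to 22.2% in the pairwise comparisons. Of 3 assembly helpers and relatives (calf-1, needed for UNC-2 to leave the endoplasmic reticulum, nlf-1, needed for NCA channels to do so, and tag-180, an α2δ relative) none passed the threshold in 4 of the 5 pairwise comparisons. The tag-180 level fell by 0.70 ± 0.21 between the triple and the spr double mutant, to 8.87 ± 2.24 CPM in the triple mutant, against 14.5 ± 2.05 CPM in the spr double mutant (SD, n = 3 each, edgeR adjusted p = 0.0353), a call lost in 7 of 19 alternatives.

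Of 9 genes of the active zone, where UNC-2 channels are tethered, 3 were higher and 1 lower in daf-2 against N2, and again 3 higher and 1 lower in the triple mutant against N2. The medians were 0.22 and 0.48 on the log2 scale. The gene rimb-1, whose protein helps to place UNC-2 at release sites, averaged 29.9 ± 4.4 CPM in the triple mutant and 26.5 ± 2.5 CPM in daf-2, against 11.4 ± 2.6 CPM in N2 (SD, n = 3 each). It rose by 1.39 ± 0.20 in the triple mutant (edgeR adjusted p = 0.000119) and by 1.21 ± 0.20 in daf-2 (edgeR adjusted p = 0.000431). The clarinet gene cla-1, a large scaffold, rose by 1.23 ± 0.27 in the triple mutant (edgeR adjusted p = 0.00334) and by 1.14 ± 0.27 in daf-2 (edgeR adjusted p = 0.00594).

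The scaffold gene syd-1 fell by 0.95 ± 0.23 in daf-2 against N2 (edgeR adjusted p = 0.00856). In the spr double mutant against N2, 2 of 9 active zone genes rose, among them nab-1 (neurabin) by 1.00 ± 0.17 (edgeR adjusted p = 0.00175). The nab-1 gene also rose in the triple mutant against N2, by 0.87 ± 0.17 (edgeR adjusted p = 0.00135).

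Of 21 genes of calcium stores and calcium removal, 2 were higher and 2 lower in daf-2 against N2, 1 higher and 1 lower between the triple mutant and daf-2, and 2 higher and 1 lower in the spr double mutant against N2. The junctophilin gene jph-1, which holds surface and store membranes together, averaged 18.3 ± 1.8 CPM in the triple mutant, 6.23 ± 1.81 CPM in daf-2, 24.0 ± 13.1 CPM in the spr double mutant and 4.59 ± 0.99 CPM in N2 (SD, n = 3 each). It rose by 1.58 ± 0.32 in the triple mutant against daf-2 (edgeR adjusted p = 0.00383) and by 2.39 ± 0.32 in the spr double mutant against N2 (edgeR adjusted p = 0.000309).

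The mitochondrial uniporter gene mcu-1 fell by 0.80 ± 0.13 in daf-2 against N2 (edgeR adjusted p = 0.000358). The calreticulin gene crt-1, which encodes a calcium-binding protein of the endoplasmic reticulum, fell by 1.13 ± 0.16 in the triple mutant against the spr double mutant (edgeR adjusted p = 0.00019).

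Of 14 tested calcium sensors, 1 was higher and 1 lower in daf-2 against N2. The CaMKII gene unc-43 had 372 ± 11.4 CPM in daf-2 and 264 ± 8.7 CPM in N2 (SD, n = 3 each), a rise of 0.49 ± 0.12 (edgeR adjusted p = 0.00903). In the triple mutant against N2 only cal-1, a calmodulin relative, passed, falling by 0.79 ± 0.21 (edgeR adjusted p = 0.011). Of 7 calcium-activated potassium channel genes, kcnl-3, of the SK type, fell by 0.98 ± 0.23 in daf-2 against N2 (edgeR adjusted p = 0.00551), and none passed in the triple mutant against daf-2.

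The genes whose log2 CPM followed a channel gene most closely over the 12 libraries are given as a description, since the libraries share genotypes and depth. The highest Pearson correlations with unc-79 were those of fbxa-12 (0.959), clec-221 (0.956) and cyp-35D1 (0.949). Those with unc-36 were hpo-9 (0.960), EEED8.14 (0.952) and gln-5 (0.935). Those with cca-1 were C26B9.1 (0.921), ttyh-1 (0.916) and tpa-1 (0.906).

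For unc-2 the closest gene was tig-2 (0.931), for unc-80 F59A3.2 (0.942) and for ccb-1 pot-2 (0.901). For the 2 NALCN pores they were elks-1, an active zone scaffold gene, with nca-1 (0.928) and clr-1, a receptor tyrosine phosphatase gene, with nca-2 (0.933). For egl-19 it was sel-2 (0.946), and for ccb-2, which had at most 32 counts, it was ZK688.4 (0.904).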

How the data were processed

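Reads from whole worms were aligned with STAR to WBcel235 and counted with featureCounts 1.5.1, per the submitters' processing notes. Not given in the sources used here were the aligner's version, annotation release, strand setting and treatment of reads with several matches. The deposited table holds raw counts per gene, whole numbers with no normalization, with 0 columns of other samples. Per the labels' protocols, cDNA was made with SMART-Seq v4 reagents and read as paired ends. That kit marks neither strand nor molecules. The p-values set a difference between genotypes against the spread between biological replicates.

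All 12 libraries were fitted with edgeR 4.0.16 (R 4.3.3), with 1 mean per genotype, filterByExpr (minimum count 10, minimum total 15), TMM and a robust quasi-likelihood F-test. The common biological coefficient of variation was 0.291. Each SE was computed as log2 fold change over √F, and intervals are 95%. Replicates within a genotype differed beyond sampling noise (chi-square over its degrees of freedom of 21.6 to 162), and those with replicate 2 of the double mutant had the highest value. Tested on simulated data, the fit missed a large share of the changed genes and made some false calls. A first pass mark on the share found was missed, and checks of sign, fold and false calls took its place. The simulation changed far fewer genes, in daf-2 only, than were called in these data, so its shares do not carry over. A result short of the threshold does not show that a gene did not change. Coordinates and exon lengths are from Ensembl release 115.

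Named genes are all 10 channel genes, up to 3 of each list and comparison with the largest change past the threshold at a mean of at least 1 CPM, and the 3 genes most like each channel gene. From these the text names some, mainly those whose call no alternative removed (19 of 43 pathway results). The genes and lists were chosen with earlier results of these data known. DESeq2 1.42.0 was an alternative. 1 gene list is not reported here. No sequences are printed.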

Additional observations from a re-analysis of the deposited data

Results flagged for a closer look

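For cca-1, the T-type calcium channel gene, the effect of the daf-2 mutation differed between worms with and without the spr mutations by -1.31 ± 0.30 on the log2 scale (edgeR adjusted p = 0.0132). The daf-2 mutation was accompanied by a fall of 0.78 ± 0.21 in worms with the spr mutations, with all 3 triple-mutant libraries below all 3 double-mutant libraries. In worms without them the difference was 0.53 ± 0.21 (edgeR adjusted p = 0.0877), and the libraries of daf-2 and N2 overlapped.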

How the results depend on the processing

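The alternatives were DESeq2, its size factors in edgeR, no filter on low counts, a replicate block, the compared libraries alone and each library left out. A term for the header ending and one for the long-transcript score were chosen after seeing the data. Of the 9 called results of channel genes 0 changed sign under any alternative, and of the 51 not called 18 did under at least 1, egl-19 in 4 comparisons. Over all alternatives a call was lost 20 times and gained 25 times. By more than 1.5 times, the channel genes called moved to 1 (main 2) in the triple mutant against daf-2 with the header term, 3 (main 1) in the double mutant against N2 with no filter, 1 (main 2) in the triple against the double mutant with those libraries alone, and 4 with DESeq2 and 5 with no filter (main 2) in the triple mutant against N2. Within that limit they moved to 3 (main 2) in the triple against the double mutant with DESeq2 and with no filter, and in the triple mutant against N2 with those libraries alone, the header term and the score. Over all genes, calls moved to 983 (main 2141) in the double mutant against N2 with those libraries alone, and to 2355 (main 1526) in the interaction with DESeq2. The causes were not tested.

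Leaving out 1 library gave 1 to 3 channel genes and 2600 to 4132 of all genes in daf-2 against N2, 1 to 2 and 1376 to 2841 between the triple mutant and daf-2, and 0 to 2 and 943 to 3139 in the double mutant against N2. It gave 0 to 2 and 1582 to 3303 in the triple against the double mutant, 2 to 4 and 2931 to 4313 in the triple mutant against N2, and 1 to 1 and 772 to 2505 in the interaction.

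Same-numbered replicates did not deviate together (correlations of -0.067 to 0.064), so no shared effect of the number was seen. This cannot show how the samples were grown or prepared, and the sample titles do not say whether the numbers pair them. With a replicate block unc-79 in daf-2 against N2 was -1.5 and cca-1 between the triple mutant and daf-2 was -0.99, and no call of a channel gene changed. Depth limits ccb-2 most.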
